A study of Mus musculus with 4 samples.

Results

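The FGF and ERK signalling genes examined here are 34 genes chosen by name from the 56748 genes counted in mouse embryonic stem cells (mESCs). They comprise 6 ligands, 4 receptors, 10 adaptors and kinases of the cascade, 9 feedback inhibitors and 5 transcriptional targets. Expression was compared between wild-type (WT) E14 cells and Npac knockout (KO) E14 cells. E14 is a mouse ES cell line, grown here without feeder cells in medium with serum and LIF, and no kinase inhibitor is named among the medium's components. Npac, listed in the files as Glyr1, binds the histone mark H3K36me3 and was knocked out with Cas9 and guide RNAs followed by puromycin selection and picking of colonies. The libraries are WT1 and WT2 from WT cells, and KO1 and KO2 from 2 Npac KO lines, so each line is represented by 1 library. Nothing in the labels says whether WT1 and WT2 came from separate cultures, and p-values therefore measure only the spread between these libraries, which may be technical.

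FGF ligands bind receptor tyrosine kinases, whose adaptors Frs2 and Grb2 recruit Sos1, which loads Ras proteins with GTP. Ras activates Raf kinases, Raf activates the MEK kinases Map2k1 and Map2k2, and MEK activates the ERK kinases, which alter transcription in the nucleus. ERK activity induces genes of its own inhibitors, among them Dusp phosphatases, Sprouty (Spry) and Spred proteins, so their transcripts are widely used as a readout of the pathway. In mESCs, Fgf4 made by the cells themselves is the main stimulus of this cascade, which moves cells from the naive state towards lineage commitment.

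Total counts were 15850805 to 16568283 in the WT libraries and 16233971 to 16965120 in the KO libraries. Glyr1 itself was read 3961 and 3115 times in WT1 and WT2 but 744 and 888 times in KO1 and KO2, a KO mean of 22.7% of the WT mean after normalization. All 10 ES cell markers examined were read in every library, with at least 1955 reads each. By the rule given below, 2 of them (20%), Zfp42 and Tfcp2l1, were called lower in Npac KO cells, against 10.7% of all genes tested. Both KO libraries lay below both WT libraries for 6 of the 10 and above them for 2, against 32.5% and 33.2% of all genes tested. The summed level of 7 fibroblast markers was 10.8 to 17.7 FPKM in WT and 11.4 to 13.0 FPKM in KO libraries, with Col3a1 and Dcn at 0 reads throughout. The corresponding sums were 7.21 to 8.04 and 3.91 to 5.40 FPKM for 7 primitive endoderm markers, 2.68 to 3.91 and 4.43 to 4.53 FPKM for 5 trophoblast markers, 26.7 to 33.0 and 27.1 to 39.7 FPKM for 5 formative or primed epiblast markers, and 7.07 to 8.05 and 7.55 to 8.24 FPKM for 4 neural markers. Single markers moved apart within these sums. Col1a1 of fibroblasts rose (log2 fold change 1.29, edgeR adjusted p = 0.0308) while Thy1, which carries most of that sum, was at 9.95 and 16.3 FPKM in WT and 8.50 and 10.1 FPKM in KO libraries, and Col1a2 had 2.06 (edgeR adjusted p = 0.0515). Of the endoderm markers Sox7 fell (-4.48, edgeR adjusted p = 0.00434), while Gata4, Gata6 and Pdgfra were above WT in both KO libraries without passing the test. Neurod1 (2.03, edgeR adjusted p = 0.0209) and Lef1 (2.08, edgeR adjusted p = 0.0243) rose, whereas Sox1 (-2.34, edgeR adjusted p = 0.00936) and Pou3f1 (-0.88, edgeR adjusted p = 0.0414) fell. The part of other cell types in the results was not tested, and in bulk RNA a change in the number of such cells and a change in RNA per cell cannot be told apart. The mitochondrial genome took 1.41% to 1.54% of the reads in WT and 1.79% to 1.91% in KO libraries. The medians of chromosomes 8 and 11 in KO1 and KO2 lay 0.48 to 0.52 above those in WT on the log2 scale relative to all genes, and 5 of the 34 genes lie there. Hprt, which has no role in the pathway, was read 5 and 6 times in WT1 and WT2 but 2932 and 2710 times in KO1 and KO2, so loss of Npac and other differences between the WT culture and the KO lines cannot be told apart.

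All 34 genes had enough reads to be tested, and none had 3 reads or fewer in both libraries of a group. Expression is given as CPM, which is the read count scaled to library size after TMM normalization, and comparisons between genes use FPKM, which also corrects for gene length. A gene was called changed at a Benjamini-Hochberg adjusted p under 0.05 over the 18157 genes tested and a fold change over 1.5. By this rule 10 of the 34 genes fell (29.4%) and 3 rose (8.82%) in Npac KO cells, against 10.7% and 11.0% of all genes tested. The 34 genes and the wider list given below were chosen with earlier results of these data known. Such shares, also those by role, are therefore a description only. The median log2 fold change was -0.21 over the 34 genes and 0.00 over all genes tested. Both KO libraries lay below both WT libraries in 15 of the 34 genes and above them in 5, while over all genes tested these shares were 32.5% and 33.2%. In 15 of the 21 genes that were not called the 2 WT libraries differed from each other by more than the genotypes did. A small genotype difference is itself a reason for a gene not to be called. The same share over all uncalled genes was not computed, so the count is not shown to be particular to these genes. With each library left out in turn, the median log2 fold change of the 34 genes was -0.19 without WT1, -0.28 without WT2, -0.21 without KO1 and -0.19 without KO2. Fewer genes were called without either KO library, among the 34 as over all genes tested. Leaving out a library leaves a single sample in that arm, which is then assumed to vary like the other genotype's pair. The KO pair was tighter than the WT pair (SD of the log2 differences over genes 0.506 against 0.729), so a call gained without a WT library rests on that smaller spread and is given only as a value.

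**Figure D1:**
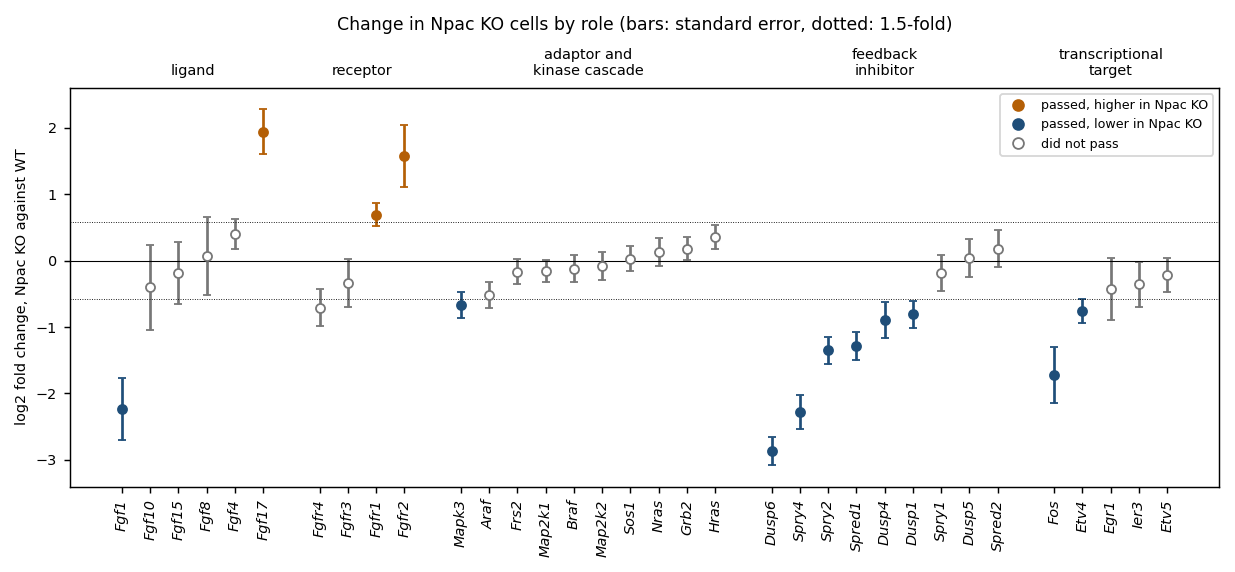
Log2 fold change of each of the 34 genes in Npac KO against WT cells (y axis), ordered within its role (x axis), with standard errors as bars and dotted lines at a 1.5-fold change. Filled points passed both thresholds: 6 of the 9 feedback inhibitors lie below the lower line, from -2.86 for Dusp6 to -0.81 for Dusp1, whereas 9 of the 10 adaptors and kinases are open points between -0.52 and 0.36.

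Among the 6 ligands, Fgf17 rose and Fgf1 fell (16.7% each, against 11.0% and 10.7% of all genes tested). The abundant Fgf4 did not pass the test. Fgf4, the autocrine FGF of ES cells, was at 326 and 227 CPM in WT1 and WT2 and at 406 and 324 CPM in KO1 and KO2. The groups overlapped, with KO2 just below WT1, and the log2 fold change was 0.40 (SE, the standard error, 0.23, edgeR adjusted p = 0.251). Fgf4 made up 89.8% to 94.4% of the summed FPKM of the 6 ligands in the WT libraries and 90.1% to 91.1% in the KO libraries. Without WT1 its log2 fold change was 0.66 (edgeR adjusted p = 0.015), past both thresholds.

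Fgf17 (ENSMUSG00000022101, chromosome 14 from 70873643 to 70879708), a ligand of the Fgf8 subfamily, was at 4.13 and 3.15 CPM in WT1 and WT2 and at 15.6 and 12.4 CPM in KO1 and KO2. The KO pair lay above the WT pair, and the mean was 3.85-fold higher, with a log2 fold change of 1.94 (SE 0.34, edgeR adjusted p = 0.00891). Without KO1 the log2 fold change was 1.76 and the adjusted p from edgeR 0.0514. Per length, Fgf17 reached 7.22 to 9.18 FPKM in Npac KO cells, still below the 99.6 to 127 FPKM of Fgf4. Fgf8, its close relative, had 1.24 and 4.01 CPM in the WT and 2.77 CPM in both KO libraries, so that the WT pair spanned both KO values.

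Fgf1 (ENSMUSG00000036585, chromosome 18 from 38971726 to 39062525), a ligand that binds all 4 receptors, was at 7.27 and 11.7 CPM in WT1 and WT2 and at 1.35 and 2.66 CPM in KO1 and KO2. The KO mean was 21.2% of the WT mean, and the log2 fold change was -2.23 (SE 0.47, edgeR adjusted p = 0.0163). Without KO1 it was -1.84 with an edgeR adjusted p of 0.077. Fgf1 and the inhibitor gene Spry4, which also fell, both lie on chromosome 18, where Spry4 spans 38719300 to 38734468. Egr1, which did not pass the test, lies there too. The median of chromosome 18 against WT on the log2 scale was -0.101 in KO1 and -0.117 in KO2. Fgf15, an endocrine ligand in mouse whose gene lies near Fgf4 on chromosome 7, had 1.80 to 3.24 CPM over the 4 libraries. Fgf10, a mesenchymal ligand, had 0.693 to 1.90 CPM. Neither of these 2 genes, at 12 to 56 reads per library, separated the genotypes.

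**Figure D2:**
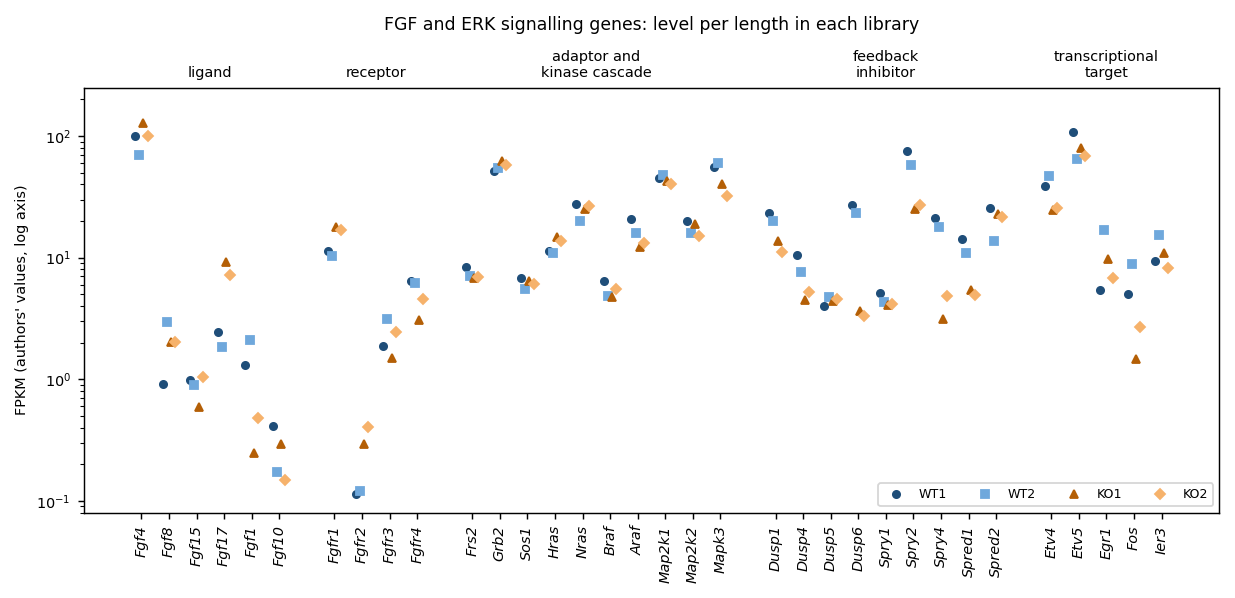
FPKM of each of the 34 genes on a log axis, with 1 point for each library, circles for WT1, squares for WT2, triangles for KO1 and diamonds for KO2, grouped by role. Fgf4 is the highest ligand by more than an order of magnitude in the WT libraries, Fgfr1 is the highest receptor, and the KO points of Dusp6, Spry2, Spry4 and Spred1 lie clearly below their WT points.

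Of the 4 receptors, Fgfr1 and Fgfr2 rose in Npac KO cells (50%, against 11.0% of all genes tested). The other 2 did not pass the test. Fgfr1 (ENSMUSG00000031565, chromosome 8 from 26003670 to 26065734), the receptor through which ES cells mainly sense Fgf4, was at 112 and 103 CPM in WT1 and WT2 and at 177 and 170 CPM in KO1 and KO2. The mean was 1.61-fold higher, with a log2 fold change of 0.69 (SE 0.17, edgeR adjusted p = 0.0278). Fgfr1 lies on chromosome 8, and with the median of each chromosome removed from each KO library its log2 fold change was 0.18 (edgeR adjusted p = 0.495). It was also not called without KO1 (log2 fold change 0.65, edgeR adjusted p = 0.251) or without KO2 (0.73, edgeR adjusted p = 0.187). Its share of the summed FPKM of the 4 receptors was 52.2% to 57.2% in WT and 69.5% to 78.5% in KO libraries.

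Fgfr4 took part in that shift in share, with 23.0 and 22.3 CPM in WT1 and WT2 and 11 and 16.6 CPM in KO1 and KO2. The KO pair lay below the WT pair, but its log2 fold change of -0.71 (SE 0.28) had an edgeR adjusted p of 0.102. It passed both thresholds without WT1 (-0.72, edgeR adjusted p = 0.0406) and without WT2 (-0.74, edgeR adjusted p = 0.0198). Fgfr3 ranged from 13.4 to 22.6 CPM in WT and from 10.7 to 17.7 CPM in KO libraries, which overlap. Fgfr2 (ENSMUSG00000030849), the receptor that marks primitive endoderm in the blastocyst, was the lowest receptor, with 1.18 and 1.26 CPM in WT1 and WT2 and 3.02 and 4.22 CPM in KO1 and KO2. Its log2 fold change was 1.57 (SE 0.47, edgeR adjusted p = 0.0488), resting on 18 and 22 reads for WT1 and WT2 and on 47 and 73 for KO1 and KO2. The call was lost without KO1 (1.77, edgeR adjusted p = 0.176), without KO2 (1.32, edgeR adjusted p = 0.356), with DESeq2 (adjusted p = 0.0739) and with chromosome medians removed (adjusted p = 0.0509). In the files Fgfr2 runs over 2960 kb of chromosome 7, from 129764181 to 132725079, and overlaps 71 other genes, so the assignment of its few reads is uncertain.

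Of the 10 adaptors and kinases between receptor and nucleus, 1 fell (10%), near the 10.7% of all genes tested, and the log2 fold changes of the other 9 lay between -0.52 for Araf and 0.36 for Hras. Mapk3 (ENSMUSG00000063065, chromosome 7 from 126358773 to 126364991), which encodes the kinase ERK1, was at 126 and 136 CPM in WT1 and WT2 and at 90.6 and 73.9 CPM in KO1 and KO2. Both KO libraries were lower, with a log2 fold change of -0.67 (SE 0.19, edgeR adjusted p = 0.0398), but the call was lost without KO1 (-0.84, edgeR adjusted p = 0.155) and without KO2 (-0.52, edgeR adjusted p = 0.407).

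Araf, a Raf kinase encoded on the X chromosome, was at 136 and 106 CPM in WT1 and WT2 and at 80.7 and 87.3 CPM in KO1 and KO2. Its groups did not overlap, yet its log2 fold change of -0.52 (SE 0.19, edgeR adjusted p = 0.0925) missed both thresholds, and only without WT2 did it pass them (-0.69, edgeR adjusted p = 0.00121). Braf, the second Raf kinase of the list, overlapped between groups at 65.8 to 88.9 CPM. The MEK genes Map2k1 and Map2k2 had log2 fold changes of -0.16 (SE 0.17) and -0.08 (SE 0.21). The Ras genes Hras and Nras had 0.36 (SE 0.18) and 0.13 (SE 0.21), and the KO pair lay above the WT pair for Hras. The adaptors Frs2 and Grb2 had -0.17 (SE 0.19) and 0.18 (SE 0.17), and Sos1 had 0.03 (SE 0.19). Grb2, the most abundant adaptor at 51.4 to 61.8 FPKM, lies on chromosome 11, and its value turned to -0.31 with the chromosome medians removed. Summed over the 10 genes, the level was 243 to 253 FPKM in WT and 218 to 234 FPKM in KO libraries.

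Of the 9 feedback inhibitors among the 34 genes, 6 fell, against 10.7% of all genes tested, and their median log2 fold change was -0.90. Of the 11 other feedback inhibitors tested from a wider list, 2 fell (18.2%), Spred3 and Dusp16, and 2 rose (18.2%), Dusp14 and Cbl. Their median was 0.24, and their summed level was 105 and 108 FPKM in the WT and 101 and 107 FPKM in the KO libraries. Most of that sum came from Dusp9, at 66 and 76.8 FPKM in the WT and 63.9 and 67.6 FPKM in the KO libraries. Its groups overlapped in CPM, and its log2 fold change was -0.11 (SE 0.18, edgeR adjusted p = 0.684). The wider list also holds genes outside the Dusp, Spry and Spred families, such as Cbl and Rasa2, so the sets are not alike. The summed level of the 9 genes was 206 FPKM in WT1 and 161 FPKM in WT2 but 86.5 FPKM in KO1 and 86.7 FPKM in KO2. The fallen genes include phosphatases that remove the activating phosphates from ERK, and Sprouty and Spred proteins, which act upstream between receptor and Raf.

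The windows below are the 250 bases upstream of the annotated start (RefSeq, GRCm38.p6) of 4 of the fallen feedback genes. Dusp5, a feedback gene that did not pass the test, is shown along with them. In all, 24 of the 34 genes matched a window there. Capitals mark exact matches on either strand to 4 motifs of factors downstream of the cascade, the ETS core CCGGAA, the CArG box of serum response factor, the cyclic AMP response element TGACGTCA and the AP-1 site TGANTCA.
Dusp6, GRCm38.p6, chr10:99262981-99263230, plus strand: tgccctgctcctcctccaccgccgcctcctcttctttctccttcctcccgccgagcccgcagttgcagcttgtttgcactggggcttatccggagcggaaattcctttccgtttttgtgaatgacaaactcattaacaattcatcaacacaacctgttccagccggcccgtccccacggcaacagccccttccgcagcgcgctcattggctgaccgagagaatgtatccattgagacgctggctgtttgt
Spry2, GRCm38.p6, chr14:105896820-105897069, minus strand: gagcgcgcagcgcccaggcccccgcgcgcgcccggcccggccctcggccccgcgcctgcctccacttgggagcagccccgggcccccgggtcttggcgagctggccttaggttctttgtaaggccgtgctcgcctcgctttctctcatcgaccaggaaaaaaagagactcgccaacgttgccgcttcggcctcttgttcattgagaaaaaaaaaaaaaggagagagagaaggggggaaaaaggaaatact
Spred1, GRCm38.p6, chr2:117120821-117121070, plus strand: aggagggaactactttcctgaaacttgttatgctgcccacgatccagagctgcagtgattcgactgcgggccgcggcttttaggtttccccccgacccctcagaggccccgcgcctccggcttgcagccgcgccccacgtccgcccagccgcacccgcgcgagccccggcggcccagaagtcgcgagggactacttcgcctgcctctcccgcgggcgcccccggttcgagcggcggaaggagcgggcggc
Dusp1, GRCm38.p6, chr17:26508473-26508722, minus strand: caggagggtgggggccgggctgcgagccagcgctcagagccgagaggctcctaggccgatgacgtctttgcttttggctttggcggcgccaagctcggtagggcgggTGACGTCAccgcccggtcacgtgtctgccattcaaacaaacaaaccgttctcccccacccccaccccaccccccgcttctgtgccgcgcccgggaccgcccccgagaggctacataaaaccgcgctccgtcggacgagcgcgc
Dusp5, GRCm38.p6, chr19:53528895-53529144, plus strand: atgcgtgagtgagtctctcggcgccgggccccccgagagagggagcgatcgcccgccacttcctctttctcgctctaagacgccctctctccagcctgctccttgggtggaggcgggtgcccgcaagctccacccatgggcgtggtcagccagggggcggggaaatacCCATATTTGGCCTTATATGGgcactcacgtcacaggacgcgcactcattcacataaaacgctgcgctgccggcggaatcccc
Dusp1 holds 1 cyclic AMP response element, from 143 to 136 bases before the start, a motif found in 1.55% of all 32851 windows. Dusp5 holds 2 adjoining CArG boxes, from 82 to 63 bases before the start, and 1.47% of all windows hold a CArG box. Spry1 and Spred2, feedback genes that also did not pass the test, have windows without any of these motifs, like Dusp6, Spry2 and Spred1. Whether fallen and other feedback genes differ in these motifs was not tested. The ETS core, present in 12.0% of windows, and the AP-1 site, present in 6.75%, have no match in these 5, which says only that these letters are absent from these stretches. The windows are on GRCm38 and are not compared with the gene coordinates in the files, which follow another set of positions.

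Dusp6 (ENSMUSG00000019960, chromosome 10 from 99099093 to 99103351), the cytoplasmic phosphatase specific for ERK, fell furthest of the 34 genes. It was at 86.0 and 73.2 CPM in WT1 and WT2 and at 11.5 and 10.5 CPM in KO1 and KO2. The KO mean was 13.8% of the WT mean, both KO lines were nearly equal, and the log2 fold change was -2.86 (SE 0.21, edgeR adjusted p = 0.000486). Under the 12 alternative settings it stayed between -2.97 and -2.76, called in each.

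Spry4 (ENSMUSG00000024427), a Sprouty inhibitor of Ras activation, was at 100 and 86.3 CPM in WT1 and WT2 and at 15 and 23.4 CPM in KO1 and KO2. Its KO mean was 20.6% of the WT mean, with a log2 fold change of -2.28 (SE 0.26, edgeR adjusted p = 0.0021), and the KO lines differed from each other by 0.64 on the log2 scale. Spry2 (ENSMUSG00000022114, chromosome 14 from 106129381 to 106134253), the most abundant Sprouty gene here at 58.1 to 74.8 FPKM in WT cells, was at 157 and 122 CPM in WT1 and WT2 and at 52.2 and 57.5 CPM in KO1 and KO2. It fell to 39.2% of the WT mean (log2 fold change -1.35, SE 0.20, edgeR adjusted p = 0.00519). Spry1, of the same family, had 14.9 and 12.6 CPM in the WT and 11.8 and 12.2 CPM in the KO libraries, with a log2 fold change of -0.19 (SE 0.27, edgeR adjusted p = 0.638). Both KO values of Spry1 were below both WT values, by little. The difference between Spry1 and the other Sprouty genes was not tested.

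Spred1 (ENSMUSG00000027351, chromosome 2 from 116951855 to 117012760), which recruits the Ras GTPase-activating protein neurofibromin, was at 98.0 and 75.3 CPM in WT1 and WT2 and at 36.9 and 34.3 CPM in KO1 and KO2. Its log2 fold change was -1.28 (SE 0.21, edgeR adjusted p = 0.00676). Spred2, its relative on chromosome 11, had 118 and 64.4 CPM in the WT libraries and 106 and 101 CPM in the KO libraries, so the KO values lay within the span of the WT pair. Its log2 fold change was 0.18 (SE 0.28), 0.66 without WT1 (edgeR adjusted p = 0.00724) and -0.20 without WT2, and it was -0.32 with the chromosome medians removed.

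Dusp1 (ENSMUSG00000024190, chromosome 17), a nuclear phosphatase of stress and ERK kinases and itself an immediate early gene, was at 77.5 and 66.9 CPM in WT1 and WT2 and at 45.1 and 37.4 CPM in KO1 and KO2. The log2 fold change was -0.81 (SE 0.20, edgeR adjusted p = 0.0265), and the call was lost without KO1 (-0.95, edgeR adjusted p = 0.115) or without KO2 (-0.66, edgeR adjusted p = 0.295). The gene overlaps Ergic1 on the opposite strand, and whether strand was used in counting is not given in the sources used here. Dusp4 (ENSMUSG00000031530, chromosome 8 from 35274451 to 35287048), a nuclear ERK phosphatase, was at 29.3 and 20.9 CPM in WT1 and WT2 and at 12.3 and 14.7 CPM in KO1 and KO2. Its log2 fold change of -0.90 (SE 0.27, edgeR adjusted p = 0.0495) lay at the edge of the threshold and was called under 6 of the 12 alternatives. The call was lost without WT1 (-0.66, edgeR adjusted p = 0.0513), without KO1 (-0.78, edgeR adjusted p = 0.318) and without KO2 (-1.02, edgeR adjusted p = 0.172). Against the raised median of chromosome 8, Dusp4 was lower in Npac KO cells, and with the chromosome medians removed its log2 fold change was -1.41 (edgeR adjusted p = 0.0138). Dusp5, a nuclear ERK phosphatase, had 9.95 and 11.9 CPM in the WT and 10.9 and 11.6 CPM in the KO libraries, and its log2 fold change was 0.04 (SE 0.29, edgeR adjusted p = 0.936).

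**Figure D3:**
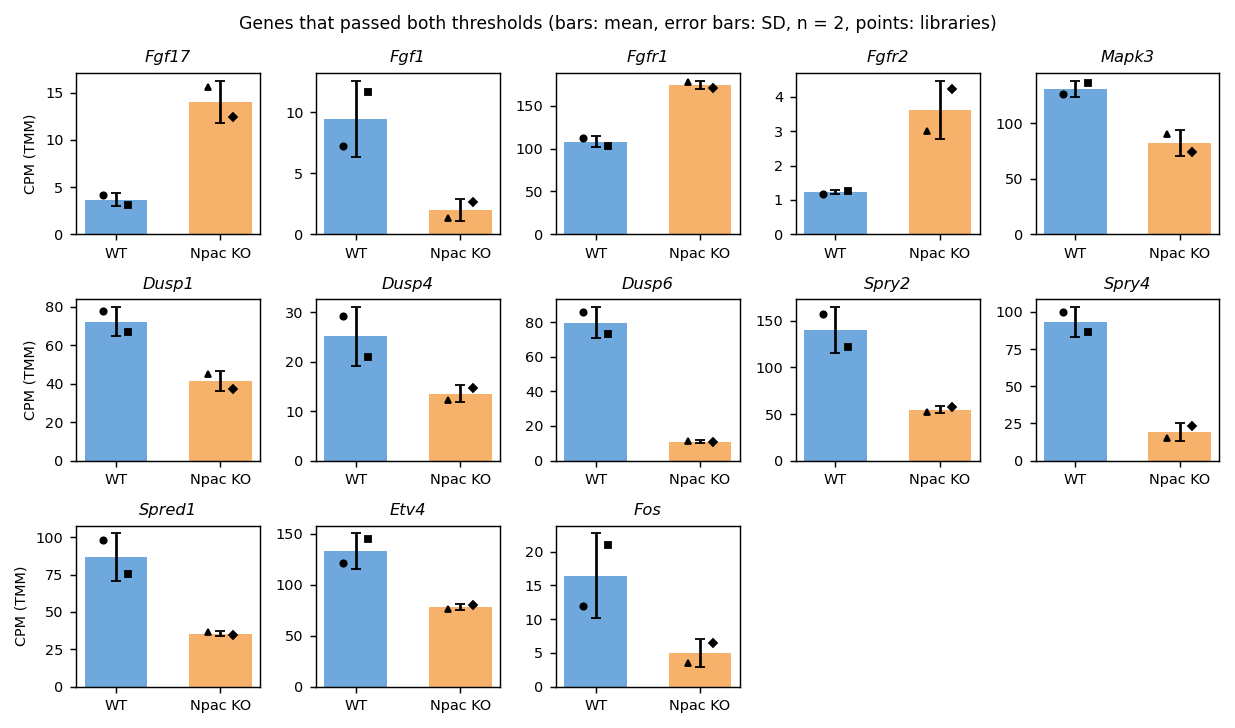
CPM (y axis, starting at 0) of the 13 genes that passed both thresholds, 1 panel per gene, with bars for the mean of WT and Npac KO cells, error bars for the SD (n = 2) and points for the libraries (circle WT1, square WT2, triangle KO1, diamond KO2). In each panel the 2 KO points lie on the same side of both WT points, above them for Fgf17, Fgfr1 and Fgfr2 and below them for the other 10 genes. The selection of called genes makes this likely.

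Of the 5 transcriptional targets, Fos and Etv4 fell (40%, against 10.7% of all genes tested). The other 3 overlapped between genotypes, as did 34.3% of all genes tested. Etv4 (ENSMUSG00000017724, chromosome 11 from 101660568 to 101676197), an ETS factor of the Pea3 family induced by FGF, was at 121 and 145 CPM in WT1 and WT2 and at 76.2 and 80.6 CPM in KO1 and KO2. Both KO libraries were lower, with a log2 fold change of -0.76 (SE 0.18, edgeR adjusted p = 0.0251). With the median of chromosome 11 removed it was -1.26 (edgeR adjusted p = 0.00624), while the call was lost without KO1 (-0.73, edgeR adjusted p = 0.224) or KO2 (-0.79, edgeR adjusted p = 0.188). Etv5, the related factor and with Fgf4 among the highest of the 34 genes at 65.2 to 109 FPKM in WT cells, had 452 and 270 CPM in the WT and 329 and 289 CPM in the KO libraries. Its KO values lay within the span of the WT pair (log2 fold change -0.22, SE 0.26, edgeR adjusted p = 0.571).

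Fos (ENSMUSG00000021250, chromosome 12 from 85520664 to 85524047), an AP-1 subunit and immediate early gene, was at 12 and 20.9 CPM in WT1 and WT2 and at 3.47 and 6.47 CPM in KO1 and KO2. Its KO mean was 30.3% of the WT mean, with a log2 fold change of -1.72 (SE 0.42, edgeR adjusted p = 0.0268), and the call was lost without KO1 (-1.36, edgeR adjusted p = 0.124). Egr1, a zinc finger immediate early gene, gave no stable direction, with 24.3 and 76.9 CPM in WT1 and WT2 and 44.1 and 31.2 CPM in KO1 and KO2. The WT libraries differed from each other by 1.66 on the log2 scale, against a difference of -0.43 between genotypes (SE 0.47, edgeR adjusted p = 0.544). Without WT1 the log2 fold change was -1.06 (edgeR adjusted p = 0.000114), and without WT2 it was 0.63 (edgeR adjusted p = 0.019). Ier3, an immediate early regulator of survival, had 10.6 and 17.4 CPM in the WT and 12.4 and 9.53 CPM in the KO libraries and did not pass the test.

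**Figure D4:**
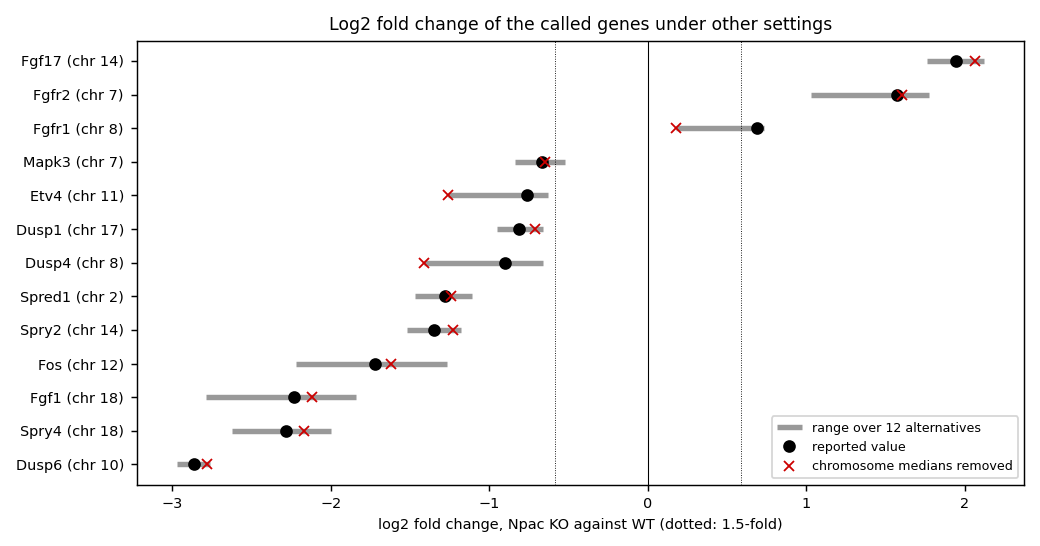
Log2 fold change in Npac KO against WT cells (x axis) of the 13 called genes (y axis, with their chromosome). Black points are the values reported, grey lines span the 12 alternative settings, red crosses are the values with chromosome medians removed, and dotted lines mark a 1.5-fold change. The crosses lie at 0.18 for Fgfr1, -1.26 for Etv4 and -1.41 for Dusp4, which are on chromosomes 8 and 11, and near the black points for the other genes.

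A wider list of 67 FGF and ERK pathway genes that are not among the 34 was read in the same fit. Spry3 was not analysed here, and of the other 66, 53 had enough reads to be tested. Of these, 12 fell (22.6%, against 10.7% of all genes tested) and 3 rose (5.66%, against 11.0%), with a median log2 fold change of -0.14. Targets and transcription factors of the pathway, Elk3 among them, gave 5 falls among 14 tested genes (35.7%). Adaptors and kinases gave 4 among 19 (21.1%) and feedback inhibitors 2 among 11 (18.2%). Of the 8 tested FGF family genes 1 fell (12.5%), Fgf11, near the share of all genes. The 3 rises were 2 feedback genes and 1 adaptor.

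The 5 largest falls among the called genes of the wider list came from different steps of the cascade. Mras, a Ras relative that forms a Raf-activating complex with Shoc2, was at 111 and 66.9 CPM in WT1 and WT2 and at 6.30 and 5.43 CPM in KO1 and KO2 (log2 fold change -3.92, SE 0.30, edgeR adjusted p = 0.000534). Junb, an AP-1 subunit encoded on chromosome 8, was at 61.0 and 64.8 CPM in the WT and at 16 and 13.9 CPM in the KO libraries (log2 fold change -2.07, SE 0.20, edgeR adjusted p = 0.00119). Fosl2, a further AP-1 subunit, had a log2 fold change of -1.99 (SE 0.46, edgeR adjusted p = 0.0209), from 4.52 and 4.92 CPM to 0.965 and 1.39 CPM. Spred3, a relative of Spred1, fell from 25.3 and 16.4 CPM to 8.04 and 6.47 CPM (log2 fold change -1.52, SE 0.32, edgeR adjusted p = 0.0155). Shc1, a receptor adaptor that recruits Grb2, fell from 224 and 191 CPM to 79.2 and 80.1 CPM (log2 fold change -1.38, SE 0.18, edgeR adjusted p = 0.0036). The KO libraries lay below the WT libraries in all 5, against 32.5% of all genes tested. Their selection as the largest called falls makes this likely. The calls of Mras, Junb and Shc1 held under all 12 alternatives, whereas Fosl2 lost its call without KO1 (-1.77, edgeR adjusted p = 0.177) and without KO2 (-2.27, edgeR adjusted p = 0.0861), and Spred3 without KO2 (-1.36, edgeR adjusted p = 0.0946). Both also lost it on the FPKM values with limma, at adjusted p of 0.0946 and 0.0642.

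The 3 genes that rose were Dusp14, Ksr1 and Cbl. Dusp14, a small phosphatase, had 4.98 and 6.93 CPM in the WT and 15.2 and 16.2 CPM in the KO libraries (log2 fold change 1.40, SE 0.31, edgeR adjusted p = 0.0193). Ksr1, a scaffold of Raf, MEK and ERK, had 14 and 15.1 CPM in the WT and 32.6 and 40.8 CPM in the KO libraries (log2 fold change 1.33, SE 0.23, edgeR adjusted p = 0.0085). Both lie on chromosome 11, and with the chromosome medians removed their log2 fold changes were 0.90 (edgeR adjusted p = 0.0798) and 0.84 (edgeR adjusted p = 0.0417). Cbl, a ubiquitin ligase that sends active receptors to degradation, rose from 46.4 and 58.1 CPM to 76.0 and 110 CPM (log2 fold change 0.83, SE 0.24, edgeR adjusted p = 0.0421). Its call was lost without KO2 (0.56, edgeR adjusted p = 0.374), as was that of Ksr1 (1.18, edgeR adjusted p = 0.0724), and Dusp14 lost its call without KO1 (1.43, edgeR adjusted p = 0.089) or KO2 (1.36, edgeR adjusted p = 0.112). On the FPKM values with limma, Cbl had an adjusted p of 0.113.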

How the data were processed

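RNA-seq was performed on 4 libraries, and the authors deposited unnormalized counts for each gene and FPKM values, in which WT2 and KO2 share a library size of 17622300. The submitters' processing notes name CASAVA, HISAT2 2.0.5, featureCounts 1.5.0-p3 and mm10, whereas the methods of the study name a later HISAT release. Of 52073 genes shared with GENCODE M21 (GRCm38), 1472 have the same start and end, so the build behind the coordinates is uncertain and they are given as in the files. Strand use and annotation release are not given in the sources used here.

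The counts were tested with edgeR 4.0.16 in R 4.3.3 (filterByExpr, TMM, quasi-likelihood test, WT against Npac KO, no covariate), after the script was tested on simulated data. This fit over 18157 genes gave every fold change, SE and adjusted p unless another tool is named. Alternatives used DESeq2 1.42.0, limma 3.58.1 on log2(FPKM + 0.1), other scalings and filters, a replicate block, removal of chromosome medians and each library left out. By rule, values in every library are given for those of the 34 genes past both thresholds, or past 1.5-fold without overlap of the groups, and those of others were added after they were seen. Of the called genes of the wider list, up to 5 with the largest rise and 5 with the largest fall were named. Values of Dusp9, which was not called, were added after they were seen. The genes and lists were chosen with earlier results of these data known. Motifs were searched with Python 3.11.15.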

Additional observations from a re-analysis of the deposited data

How the results depend on the processing

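The fall of Dusp6, Spry4, Spry2 and Spred1 was called under all 12 alternatives, and 9 of the 13 called genes lost their call under at least 1. With FPKM and limma-trend, Fgf1, Fgfr1, Fgfr2, Mapk3, Dusp1, Dusp4 and Fos lost their call, 1 of the 34 genes rose and 5 fell, 1330 and 1226 of all genes were higher and lower, and 5 of the wider list fell. With chromosome medians removed, 1 of the 34 genes rose, and values turned to -0.31 for Grb2, -0.32 for Spred2, 0.04 for Map2k1 and 0.00 for Map2k2. Without a filter on low counts, 6 of the wider list rose.

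Leaving out each library in turn gave 0 to 5 rises and 4 to 12 falls among the 34 genes, 0 to 8 rises and 4 to 15 falls in the wider list, and 826 to 3571 rises and 821 to 3384 falls over all genes. Among genes that were not called, leaving out single libraries turned the direction, with lowest and highest values of -0.56 and 1.15 for Fgf8, -0.66 and 0.16 for Fgf15, -0.95 and 0.31 for Fgf10 (0.02 without KO2), -0.73 and 0.08 for Fgfr3, -0.12 and 0.16 for Sos1, -0.09 and 0.35 for Nras, -0.31 and 0.06 for Braf, -0.24 and 0.08 for Map2k2, -0.11 and 0.17 for Dusp5, -0.20 and 0.66 for Spred2, -0.55 and 0.17 for Etv5, -1.06 and 0.63 for Egr1, and -0.70 and 0.04 for Ier3. The cause of these changes was not tested.

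With the replicate block, 3 of the 34 genes rose and 11 fell, Fgfr4 being added (-0.74, edgeR adjusted p = 0.0323), 6 of the wider list rose, and 3128 of all genes were higher and 2994 lower. The numbers are shared by a WT library and a KO line with nothing in the labels that pairs them. Deviations of same-numbered libraries from their group means correlated at 0.332 across genes, which are not independent replicates. Fgf8, Fgf10, Fgf15 and Fgfr2 rest on 12 to 73 reads per library, and the WT libraries of Fgf8 (19 and 70 reads) differed by 1.60 on the log2 scale.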
